A study of Saccharomyces cerevisiae with 10 samples.

Results

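A set of 10 genes of serine, glycine and glyoxylate metabolism were read across 5 genotypes of haploid *Saccharomyces cerevisiae*, out of 5449 *S. cerevisiae* genes measured on the same arrays. They were taken by name: AGX1 (YFL030W), GLY1 (YEL046C), SHM1 (YBR263W), SHM2 (YLR058C), GCV1 (YDR019C), GCV2 (YMR189W), GCV3 (YAL044C), SER1 (YOR184W), SER3 (YER081W) and SER33 (YIL074C). Each had 1 probe set, none with a name that marks reading of related genes, and all 10 lay above the background limit on all 10 arrays.

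All strains shared the Sce3044 background and carried no evolved alleles other than those studied. Ancestral cells carried none, MKT1e the evolved MKT1 allele, MDS3e the evolved MDS3 allele, MDS3e MKT1e both of these, and PMA1e MKT1e the evolved PMA1 and MKT1 alleles. MKT1 encodes a post-transcriptional regulator of mRNAs, MDS3 a regulator tied to TOR signalling, and PMA1 the cell's main proton-exporting ATPase. No strain with PMA1e but without MKT1e was analysed here, so that allele could be read only beside MKT1e. Each genotype had 2 arrays (n = 2), 1 per culture, labelled as biological replicates. The labels do not say that a genotype was represented by more than 1 strain. After an overnight culture in rich medium, cells grew in defined medium with 0.25% dextrose, 0.02 mg per ml uracil and no added amino acids, for about 17 h, to an optical density of about 0.2.

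In such a medium yeast must make its own serine and glycine. Serine is built from the glycolytic intermediate 3-phosphoglycerate by SER3 or SER33, then SER1 and SER2. Glycine arises from serine through the serine hydroxymethyltransferases, from threonine through the aldolase GLY1, or from glyoxylate through the aminotransferase AGX1, a route known from growth on non-fermentable carbon. The mitochondrial glycine decarboxylase complex, with the subunits GCV1, GCV2, GCV3 and LPD1, breaks glycine down and loads a one-carbon unit on tetrahydrofolate.

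Levels are log2 of the deposited intensity plus 16, and differences are log2 differences ± SE with n = 2 arrays in each genotype. A gene rose or fell where limma's moderated test, fitted to all 10 arrays and 5449 genes, gave a Benjamini-Hochberg adjusted p under 0.05. MDS3e was not tested against MKT1e or against PMA1e MKT1e. Among the replicate arrays Pearson's r across genes ran from 0.996 to 0.998, genes not being independent replicates, and the median SE of a genotype difference was 0.07. By limma's F-test 9 of the 10 genes differed among the genotypes, where 55% of all genes did, and SHM2 did not pass (adjusted p = 0.31). GLY1 and GCV3 passed narrowly, with adjusted p = 0.045 and 0.046. No sequence of these genes or proteins is printed, and levels of different probe sets are not set against each other.

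**Figure D1:**
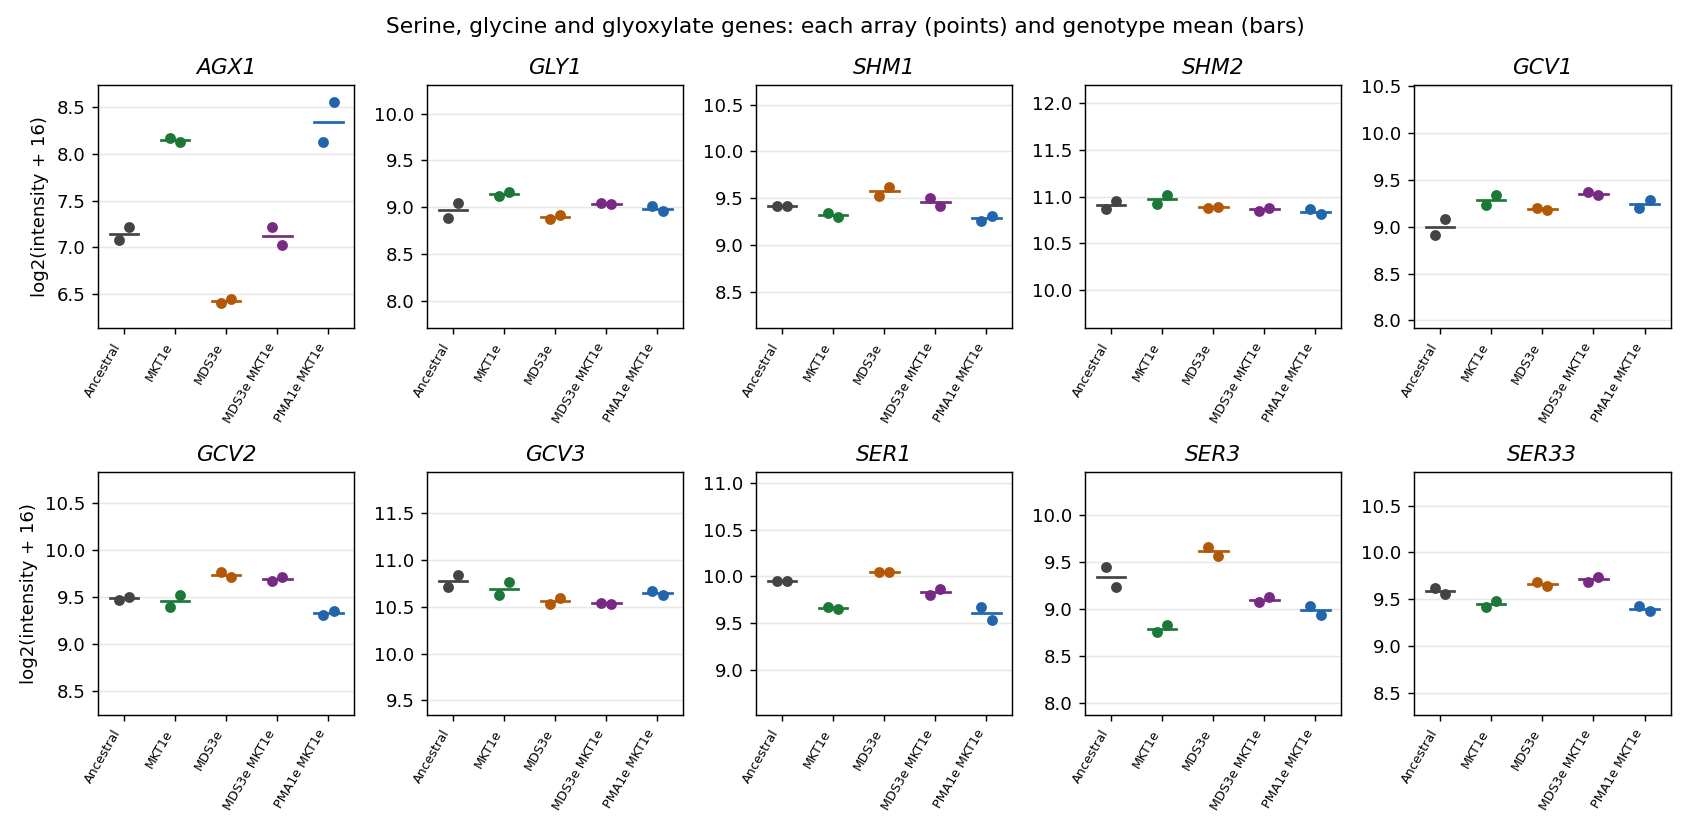
Level of each of the 10 genes on every array, as log2(intensity + 16), by genotype; points are single arrays, bars are genotype means, and every panel spans the same height of log2 units. AGX1 covers the widest range, from 6.41 in MDS3e to 8.55 in PMA1e MKT1e, while SHM2 stays between 10.81 and 11.02.

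AGX1, the alanine:glyoxylate aminotransferase gene that makes glycine from glyoxylate, was high with the evolved MKT1 allele and low with the evolved MDS3 allele. The deposited intensities were 119 and 133 on the ancestral arrays, 271 and 264 in MKT1e, and 69.0 and 71.3 in MDS3e. In MDS3e MKT1e they were 132 and 114, and in PMA1e MKT1e they were 264 and 358. Both MKT1e arrays therefore lay above both ancestral arrays and both MDS3e arrays below them, whereas the arrays of MDS3e MKT1e overlapped the ancestral ones. The order of the genotype means from high to low was PMA1e MKT1e, MKT1e, Ancestral, MDS3e MKT1e and MDS3e. Of the neighbours in that order, PMA1e MKT1e overlapped MKT1e and Ancestral overlapped MDS3e MKT1e.

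Against ancestral cells AGX1 rose by 1.00 ± 0.12 in MKT1e (adjusted p = 0.00018), a ratio of mean intensities of 2.13. It rose by 1.19 ± 0.12 in PMA1e MKT1e (adjusted p = 5.6e-05), with a ratio of 2.48, and fell by 0.72 ± 0.12 in MDS3e (adjusted p = 0.0025), with a ratio of 0.558. In MDS3e MKT1e the difference was -0.03 ± 0.12 (adjusted p = 0.87), with a 95% confidence interval from -0.29 to 0.23. These 4 comparisons share the 2 ancestral arrays. The range of the 5 genotype means was 1.91, which ranked 30th of the 5449 genes.

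Each allele was also read beside the other one. Each of these effects compares no array used for the same allele alone, although MDS3e MKT1e enters both. Adding MKT1e to MDS3e was accompanied by a rise of AGX1 by 0.69 ± 0.12 (adjusted p = 0.0026), and adding MDS3e to MKT1e by a fall of 1.03 ± 0.12 (log2 difference -1.03, adjusted p = 0.00022). The interaction of the 2 alleles, which is the difference between an allele's effect with and without the other, was -0.31 ± 0.17 (adjusted p = 0.79, 95% confidence interval from -0.68 to 0.06). A departure from the sum of the effects was therefore not called, and the interval still holds values up to -0.68. PMA1e MKT1e stood above MDS3e MKT1e by 1.22 ± 0.12 (adjusted p = 5e-05). Between PMA1e MKT1e and MKT1e the difference was 0.19 ± 0.12 (adjusted p = 0.66, interval from -0.07 to 0.45).

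All 6 AGX1 calls held under each of the 20 alternatives, which were 10 other ways of processing and 10 fits that left out 1 array. The MKT1e difference then ran from 0.81 to 1.09, the MDS3e difference from -0.83 to -0.50 and the PMA1e MKT1e difference from 0.97 to 1.40. The higher of the PMA1e MKT1e values came without PMA1e MKT1e replicate 1, the array of that strain with the lower AGX1 intensity.

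**Figure D2:**
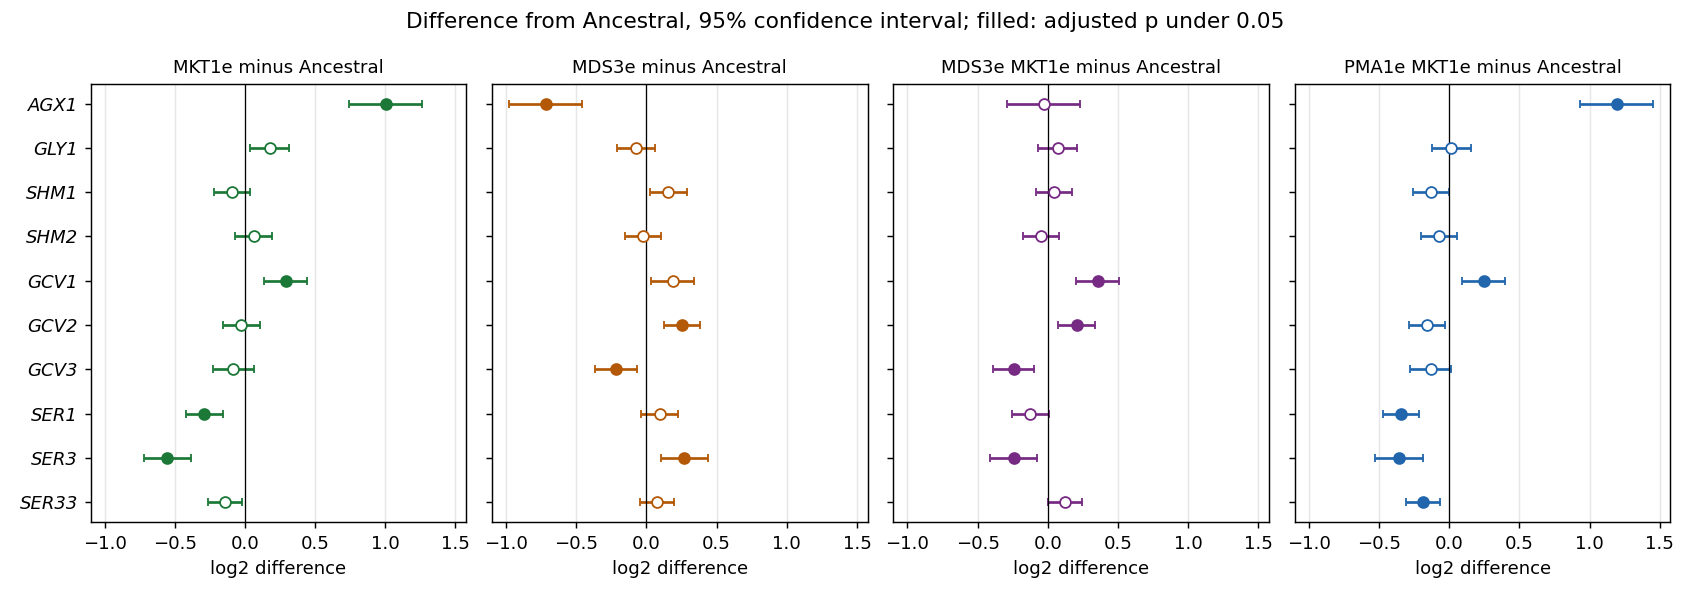
Log2 difference of each gene from Ancestral in the 4 strains with evolved alleles (horizontal axis), with 95% confidence intervals from the limma fit; filled points have an adjusted p under 0.05. AGX1 lies at 1.00 in MKT1e and -0.72 in MDS3e, and at -0.03 and 1.19 in the strains that add MDS3e or PMA1e to MKT1e.

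SER3 and SER1, of the first steps of serine synthesis, fell in MKT1e and PMA1e MKT1e, where AGX1 rose. SER3, a 3-phosphoglycerate dehydrogenase gene, had levels of 9.45 and 9.24 on the ancestral arrays, 8.75 and 8.83 in MKT1e, and 9.66 and 9.57 in MDS3e. In MDS3e MKT1e it read 9.08 and 9.13, and in PMA1e MKT1e 9.03 and 8.94. No neighbouring genotypes overlapped in its order, which from high to low was MDS3e, Ancestral, MDS3e MKT1e, PMA1e MKT1e and MKT1e. SER3 fell by 0.55 ± 0.08 in MKT1e (adjusted p = 0.00053). In PMA1e MKT1e the fall was 0.36 ± 0.08 (log2 difference -0.36, adjusted p = 0.0071). It fell by 0.51 ± 0.08 when MKT1e was added to MDS3e (adjusted p = 0.001). The first and the third of these calls held under all 20 alternatives, and the second was lost without PMA1e MKT1e replicate 2, at -0.31 (adjusted p = 0.071).

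With the evolved MDS3 allele SER3 was higher. It rose by 0.27 ± 0.08 in MDS3e (adjusted p = 0.028) and by 0.31 ± 0.08 when MDS3e was added to MKT1e (adjusted p = 0.015). Leaving out Ancestral replicate 2 gave 0.16 for MDS3e (adjusted p = 0.16), and that call was also lost without MDS3e replicate 1 (0.23) or replicate 2 (0.32). The call beside MKT1e was lost without MKT1e replicate 1 (0.27) or replicate 2 (0.35) or MDS3e MKT1e replicate 2 (0.29). In the strain with both alleles SER3 fell by 0.24 ± 0.08 against ancestral cells (adjusted p = 0.029), a call lost without Ancestral replicate 1, at -0.14 (adjusted p = 0.18), or without either array of MDS3e MKT1e (-0.22 and -0.27). Neither this call nor that of MDS3e held with the compared genotypes only, nor the latter with a pseudocount of 1. The interaction for SER3 was 0.04 ± 0.11 (adjusted p = 0.97, interval from -0.20 to 0.28).

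SER33, the second 3-phosphoglycerate dehydrogenase gene, had levels of 9.62 and 9.56 in ancestral cells, 9.41 and 9.48 in MKT1e, and 9.68 and 9.64 in MDS3e. It read 9.69 and 9.73 in MDS3e MKT1e, and 9.43 and 9.37 in PMA1e MKT1e. The arrays of MKT1e and PMA1e MKT1e overlapped and lay below all others. Its differences from ancestral cells were -0.14 ± 0.05 in MKT1e (adjusted p = 0.099), 0.08 ± 0.05 in MDS3e (adjusted p = 0.33) and 0.12 ± 0.05 in MDS3e MKT1e (adjusted p = 0.10). In PMA1e MKT1e it fell by 0.19 ± 0.05 (adjusted p = 0.034), a call kept in 5 of the 10 fits without 1 array. It was lost without Ancestral replicate 1 (-0.16), either MDS3e array (-0.19 each) or either PMA1e MKT1e array (-0.21 and -0.16), and also after quantile normalization or cyclic loess (-0.15 each) and with the compared genotypes only. SER33 rose by 0.26 ± 0.05 when MDS3e was added to MKT1e (adjusted p = 0.0073), with 0.24 (adjusted p = 0.052) without MDS3e MKT1e replicate 2. When MKT1e was added to MDS3e the value was 0.05 ± 0.05 (adjusted p = 0.61), where SER3 fell by 0.51. From MDS3e MKT1e to PMA1e MKT1e it fell by 0.31 ± 0.05 (adjusted p = 0.0025), under all 20 alternatives. Whether SER3 and SER33 differed in their responses was not tested, and how far the 2 probe sets read each other's mRNA was not tested.

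SER1, the phosphoserine aminotransferase gene of the next step, had levels of 9.95 on both ancestral arrays, 9.67 and 9.65 in MKT1e, and 10.05 and 10.04 in MDS3e. It read 9.80 and 9.86 in MDS3e MKT1e, and 9.68 and 9.54 in PMA1e MKT1e. Its order from high to low was MDS3e, Ancestral, MDS3e MKT1e, MKT1e and PMA1e MKT1e, and only the last 2 overlapped. In MKT1e SER1 fell by 0.29 ± 0.06 (adjusted p = 0.0061), in PMA1e MKT1e it fell by 0.34 ± 0.06 (adjusted p = 0.0019), and both calls held under all 20 alternatives. It fell by 0.22 ± 0.06 when MKT1e was added to MDS3e (adjusted p = 0.028), but leaving out any single array of the pair lost the call, with values from -0.25 to -0.19. PMA1e MKT1e lay below MDS3e MKT1e by a log2 difference of -0.22 ± 0.06 (adjusted p = 0.017), a call lost without MDS3e MKT1e replicate 2 (-0.19) or PMA1e MKT1e replicate 2 (-0.15). The differences in MDS3e (0.09 ± 0.06, adjusted p = 0.26) and MDS3e MKT1e (-0.12 ± 0.06, adjusted p = 0.12) did not pass, although after median centring of the arrays the second was -0.21 (adjusted p = 0.018).

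SER2, the phosphoserine phosphatase gene that ends the pathway, is not one of the 10. It rose by 0.49 ± 0.05 in MDS3e (adjusted p = 0.00016) and by 0.31 ± 0.05 when MDS3e was added to MKT1e (adjusted p = 0.0024), both under all 20 alternatives. In MKT1e its difference was -0.05 ± 0.05 (adjusted p = 0.54). In MDS3e MKT1e it rose by 0.26 ± 0.05 against ancestral cells (adjusted p = 0.0032), under all 20 alternatives. When MKT1e was added to MDS3e SER2 fell by 0.23 ± 0.05 (adjusted p = 0.011), a call lost without MDS3e replicate 2 (-0.20) or either array of MDS3e MKT1e (-0.24 and -0.23).

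GLY1, the threonine aldolase gene, had levels of 8.89 and 9.05 on the ancestral arrays, 9.12 and 9.17 in MKT1e, 8.88 and 8.92 in MDS3e, 9.04 on both arrays of MDS3e MKT1e, and 9.01 and 8.96 in PMA1e MKT1e. Its genotype means spanned 0.25, from MDS3e to MKT1e, a pair that was not tested. GLY1 passed the F-test (adjusted p = 0.045) but none of the tested comparisons of 2 genotypes. The nearest was MKT1e against ancestral at 0.18 ± 0.06 (adjusted p = 0.07), which passed without Ancestral replicate 2 at 0.25 (adjusted p = 0.017), after cyclic loess at 0.19 and with a pseudocount of 64 at 0.16.

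The serine hydroxymethyltransferases interconvert serine and glycine, SHM1 in mitochondria and SHM2 in the cytosol. SHM1 had levels of 9.41 and 9.42 on the ancestral arrays, 9.35 and 9.30 in MKT1e, 9.52 and 9.62 in MDS3e, 9.51 and 9.41 in MDS3e MKT1e, and 9.26 and 9.31 in PMA1e MKT1e. SHM1 passed the F-test (adjusted p = 0.011). Its genotype means spanned 0.29, from PMA1e MKT1e to MDS3e, a pair that was not tested. Its only call in the tested comparisons was a fall of 0.17 ± 0.06 from MDS3e MKT1e to PMA1e MKT1e (log2 difference -0.17, adjusted p = 0.044). That call held in 2 of the 10 fits without 1 array, those without an ancestral array, with a range from -0.22 to -0.13. It was also lost after median centring (-0.15), quantile normalization (-0.14) and cyclic loess (-0.16), with a pseudocount of 1 (-0.18) and with the compared genotypes only. In MDS3e the value was 0.16 ± 0.06 (adjusted p = 0.075).

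SHM2 had no call in any comparison, with differences from ancestral cells between -0.07 ± 0.06, in PMA1e MKT1e, and 0.06 ± 0.06, in MKT1e. They were -0.03 ± 0.06 for MDS3e and -0.05 ± 0.06 for MDS3e MKT1e. It was among the brightest 10% of genes, with SER1 and GCV3, and its direction in MDS3e and MDS3e MKT1e depended on the scaling, which that of SER1 and GCV3 there did not. After quantile normalization SHM2 was higher by 0.21 in MDS3e and 0.22 in MDS3e MKT1e (adjusted p = 0.02 and 0.0095), and after cyclic loess by 0.17 and 0.19. The 545 brightest genes had a median difference of -0.15 in MDS3e and -0.20 in MDS3e MKT1e, against 0.04 and 0.04 for all other genes, and -0.01 in MKT1e. The part of this shift in the result for single bright genes was not tested.

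The 3 glycine decarboxylase subunit genes each had another order of genotype means, and whether their responses differed was not tested. GCV1, which encodes the T subunit, was lowest in ancestral cells, at 8.91 and 9.09, and read 9.24 and 9.35 in MKT1e, 9.20 and 9.18 in MDS3e, 9.37 and 9.34 in MDS3e MKT1e, and 9.20 and 9.29 in PMA1e MKT1e. Every array of the 4 strains with evolved alleles lay above both ancestral arrays. GCV1 rose by 0.29 ± 0.07 in MKT1e (adjusted p = 0.014). The rise was 0.36 ± 0.07 in MDS3e MKT1e (adjusted p = 0.0027) and 0.25 ± 0.07 in PMA1e MKT1e (adjusted p = 0.028). In MDS3e the value was 0.19 ± 0.07 (adjusted p = 0.07), which passed at 0.27 without Ancestral replicate 2. The MDS3e MKT1e call held under all 20 alternatives. The MKT1e call was lost without Ancestral replicate 1, at 0.20 (adjusted p = 0.087), or MKT1e replicate 2 (0.24), and the PMA1e MKT1e call without Ancestral replicate 1 (0.16) or either of its own arrays (0.29 and 0.20) or after median centring (0.19). With the compared genotypes only neither passed.

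GCV2, which encodes the P subunit, was high in both strains with MDS3e, at 9.76 and 9.71 in MDS3e and 9.67 and 9.71 in MDS3e MKT1e. It read 9.46 and 9.51 in ancestral cells, 9.40 and 9.52 in MKT1e, and 9.31 and 9.35 in PMA1e MKT1e. The arrays with MDS3e lay above all arrays without it. GCV2 rose by 0.25 ± 0.06 in MDS3e (adjusted p = 0.013), against ancestral cells by 0.21 ± 0.06 in MDS3e MKT1e (adjusted p = 0.019) and by 0.23 ± 0.06 when MDS3e was added to MKT1e (adjusted p = 0.017). After median centring these were 0.20, 0.12 and 0.17 and did not pass. Single arrays also decided them: the MDS3e call was lost without MDS3e replicate 1 (0.22), the second without Ancestral replicate 1 (0.19) or MDS3e MKT1e replicate 2 (0.18), and the third without MKT1e replicate 1 (0.17) or MDS3e MKT1e replicate 2 (0.21). PMA1e MKT1e lay below MDS3e MKT1e by a log2 difference of -0.36 ± 0.06 (adjusted p = 0.0015), which held under all 20 alternatives. The interaction was -0.02 ± 0.08 (adjusted p = 0.98).

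GCV3 encodes the H subunit, the lipoyl carrier of the complex. Its levels were 10.72 and 10.84 in ancestral cells, 10.62 and 10.77 in MKT1e, 10.53 and 10.60 in MDS3e, 10.54 and 10.53 in MDS3e MKT1e, and 10.67 and 10.63 in PMA1e MKT1e. In MDS3e it fell by 0.22 ± 0.07 (adjusted p = 0.038), and in MDS3e MKT1e it fell by 0.24 ± 0.07 (adjusted p = 0.016). Quantile normalization lost both calls, at -0.04 and -0.03 (adjusted p = 0.65 and 0.67), as did cyclic loess, at -0.05 and -0.04. GCV3 is one of the bright genes described above. Without Ancestral replicate 2 they were -0.15 (adjusted p = 0.19) and -0.18 (adjusted p = 0.098). The first was kept in 3 of the 10 fits without 1 array, those without Ancestral replicate 1 or an MKT1e array, and the second was also lost without either array of MDS3e MKT1e (-0.25 and -0.23). LPD1, which encodes the subunit shared with other mitochondrial dehydrogenases, passed in none of the comparisons and had a range of genotype means of 0.04.

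Counted by comparison, the 10 genes were called at shares that can be read against all genes. In MKT1e against ancestral 4 of 10 were called where 20.3% of all genes were: 2 rose, against 11.8%, and 2 fell, against 8.48%. In MDS3e 4 of 10 were called, against 25.2%, with 2 higher, against 14.5%, and 2 lower, against 10.7%. In MDS3e MKT1e 4 of 10 stood against 38.7%, a share near that of all genes, with 2 higher, against 21.9%, and 2 lower, against 16.7%. In PMA1e MKT1e 5 of 10 were called, against 21.6%, with 2 higher, against 14.3%, and 3 lower, against 7.32%.

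Adding MKT1e to MDS3e gave 3 calls in 10, against 17.2%, with 1 rise, against 11%, and 2 falls, against 6.24%. Adding MDS3e to MKT1e gave 4, against 26.4%, with 3 rises, against 15%, and 1 fall, against 11.5%. PMA1e MKT1e differed from MDS3e MKT1e for 5 genes, against 31.4%, higher for 1, against 15.3%, and lower for 4, against 16.1%.

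Single arrays and the scaling set part of these counts. Over all genes, too, calls in MDS3e against ancestral were fewest, among the alternatives, without MDS3e replicate 1. In MDS3e MKT1e and in PMA1e MKT1e against ancestral they were fewest without replicate 2 of that strain. Calls were therefore lost in those fits over all genes as well. Whether the members lost a larger share was not tested. In MDS3e the 4 calls became 1 without MDS3e replicate 1 and 2 without replicate 2. In MDS3e MKT1e against ancestral 2 were left without Ancestral replicate 1 or MDS3e MKT1e replicate 1, and 1 without MDS3e MKT1e replicate 2. In PMA1e MKT1e 3 were left without Ancestral replicate 1 or PMA1e MKT1e replicate 1, and 2 without PMA1e MKT1e replicate 2. For MDS3e added to MKT1e 2 were left without MKT1e replicate 1 and 1 without MDS3e MKT1e replicate 2, and between the double strains 3 without replicate 2 of either.

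The split into rises and falls moved with the scaling. In MDS3e it was 1 and 2 after median centring and 3 and 1 after quantile normalization or cyclic loess. In MDS3e MKT1e it was 1 and 3, 3 and 1, and 4 and 1 under the same settings. In PMA1e MKT1e it was 1 and 5 after median centring.

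The 2 arrays of one genotype lay wholly above or below the 2 of the other for 7 of the 10 genes in MKT1e against ancestral, against 56.9% of all genes. The count was 8 in MDS3e, against 61.7%, 6 in MDS3e MKT1e, against 65.9%, and 9 in PMA1e MKT1e, against 59.1%. For MKT1e added to MDS3e it was 8, against 61%, and for MDS3e added to MKT1e 9, against 65.8%. Between PMA1e MKT1e and MKT1e it was 4, against 43.6%, and between the double strains 9, against 70.4%.

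The 10 genes had a median difference of -0.05 in MKT1e, where that of all genes was -0.01. For MDS3e it was 0.09, against 0.03, for MDS3e MKT1e 0.01, against 0.03, and for PMA1e MKT1e -0.13, against 0.01. Regardless of sign, the medians in the same order were 0.16, 0.17, 0.12 and 0.17, against 0.11, 0.12, 0.14 and 0.10 for all genes. AGX1 had the largest difference of the 10 in each of these comparisons except MDS3e MKT1e, where GCV1 had.

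**Figure D3:**
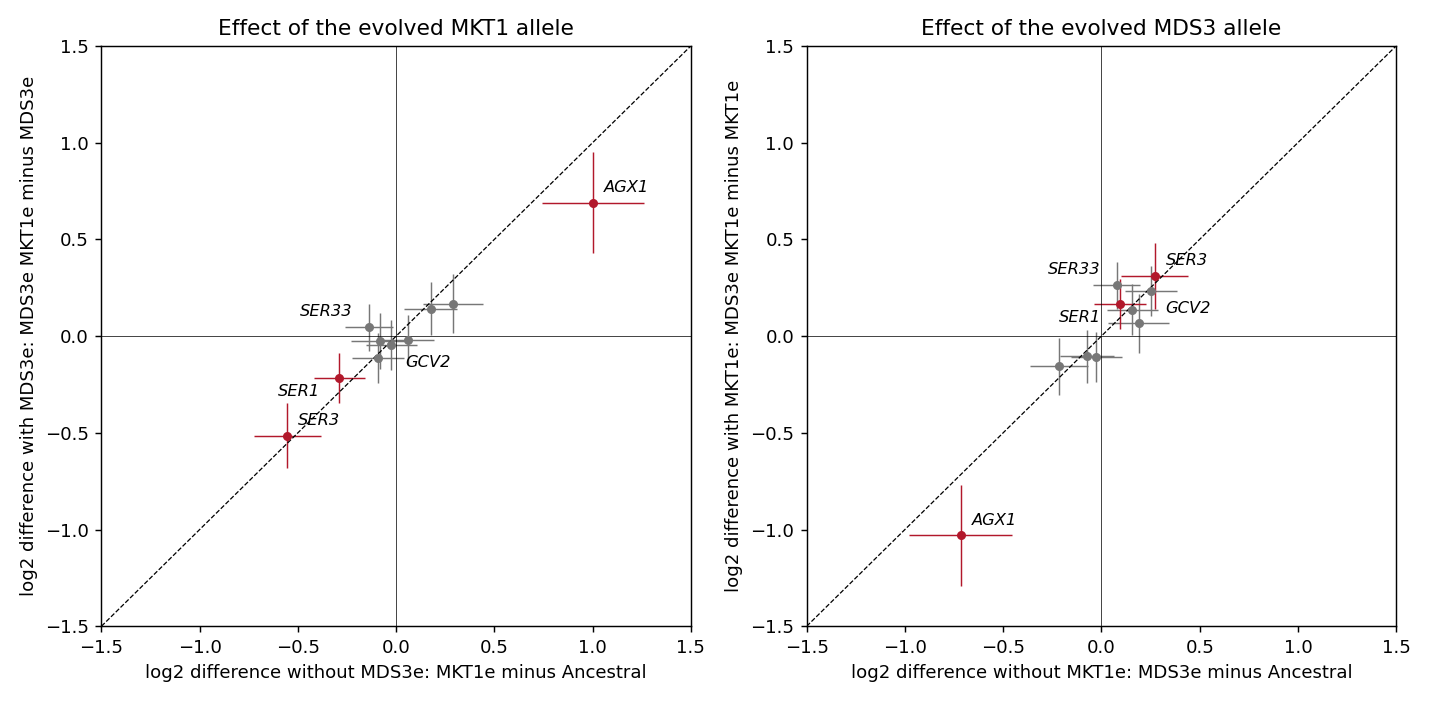
Effect of each evolved allele on the 10 genes without (horizontal axis) and with (vertical axis) the other allele, as log2 differences with 95% confidence intervals; the dashed line marks equal effects, and AGX1, SER3 and SER1 are in red. For MKT1e, AGX1 lies at 1.00 and 0.69, SER3 at -0.55 and -0.51; for MDS3e, AGX1 lies at -0.72 and -1.03, SER3 at 0.27 and 0.31.

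None of the 10 genes passed limma's test of the interaction of MDS3e and MKT1e, where 0.385% of all genes were called (0.0734% positive and 0.312% negative), and 1 of 10 had an unadjusted p under 0.05, which 7.1% of all genes had. That gene was SER33, at 0.19 ± 0.08 (adjusted p = 0.64). None passed between PMA1e MKT1e and MKT1e either, where 0.0184% of all genes were called, all lower, and 0% were higher. There 4 of the 10 had an unadjusted p under 0.05 in limma's test, against 9.86% of all genes. They were GLY1 at -0.16 ± 0.06, SHM2 at -0.13 ± 0.06, GCV2 at -0.13 ± 0.06 and SER3 at 0.19 ± 0.08, with adjusted p from 0.43 to 0.50.

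Among 15 other genes of serine, glycine and folate one-carbon metabolism, 1 rose and 1 fell in MKT1e, where 20.3% of all genes were called. In MDS3e 2 rose, against 25.2%, in MDS3e MKT1e 5 rose and 1 fell, against 38.7%, and in PMA1e MKT1e 1 rose and 1 fell, against 21.6%. MET13, the main methylenetetrahydrofolate reductase gene, which commits one-carbon units to methionine, rose by 0.54 ± 0.05 in MKT1e (adjusted p = 4.4e-05). Its rise was 0.59 ± 0.05 in MDS3e MKT1e (adjusted p = 1.5e-05) and 0.47 ± 0.05 in PMA1e MKT1e (adjusted p = 0.0001). It rose by 0.60 ± 0.05 when MKT1e was added to MDS3e (adjusted p = 2.3e-05), and in MDS3e its difference was -0.01 ± 0.05. MET13 kept these 4 calls under all 20 alternatives.

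MIS1, the mitochondrial C1-tetrahydrofolate synthase gene, rose by 0.35 ± 0.07 in MDS3e MKT1e (adjusted p = 0.0043), under all 20 alternatives. Its cytosolic counterpart ADE3 fell by 0.26 ± 0.06 there (adjusted p = 0.0067), but at -0.08 and -0.09 after quantile normalization and cyclic loess it did not pass. In PMA1e MKT1e ADE3 fell by 0.20 ± 0.06 (adjusted p = 0.036), with -0.15 (adjusted p = 0.14) without Ancestral replicate 2 and no call without either MDS3e array (-0.20 each) or either PMA1e MKT1e array (-0.21 and -0.20). That call was also lost after quantile normalization (-0.14) and cyclic loess (-0.15), with a pseudocount of 1 and with the compared genotypes only. FAU1, the 5-formyltetrahydrofolate cyclo-ligase gene, fell by 0.24 ± 0.06 in MKT1e (adjusted p = 0.012). That call was lost without MKT1e replicate 2 (-0.21) and with the compared genotypes only. DFR1, the dihydrofolate reductase gene, rose by 0.22 ± 0.05 in MDS3e (adjusted p = 0.012), with 0.18 (adjusted p = 0.089) without MDS3e replicate 2. It did not pass after median centring (0.17) or cyclic loess (0.16), or with the compared genotypes only. MET7, a folylpolyglutamate synthetase gene, rose by 0.22 ± 0.06 in MDS3e MKT1e, a call kept in 14 of the 20 alternatives. CHA1, the serine deaminase gene, MTD1, a cytosolic methylenetetrahydrofolate dehydrogenase gene, MET12, FOL2 and FOL3 passed in none of the 4 comparisons with ancestral cells. FMT1, of mitochondrial formylation, lay above the background limit on 1 array.

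The genes that form or remove glyoxylate, the substrate of AGX1, did not move as one. ICL1, the isocitrate lyase gene that forms glyoxylate from isocitrate, did not pass in MKT1e (-0.20 ± 0.09) or PMA1e MKT1e (-0.19 ± 0.09), the strains in which AGX1 rose. In MDS3e MKT1e it fell by 0.28 ± 0.09 (adjusted p = 0.031). That call was lost without Ancestral replicate 1 (-0.14) or either array of MDS3e MKT1e (-0.31 and -0.25). It was also lost with a pseudocount of 64 and with the compared genotypes only. GOR1, a glyoxylate reductase gene, fell by 0.50 ± 0.07 in MDS3e (adjusted p = 0.0012). In MDS3e MKT1e it fell by 0.37 ± 0.07 (adjusted p = 0.0025), and it fell by 0.46 ± 0.07 when MDS3e was added to MKT1e (adjusted p = 0.0014), under all 20 alternatives each. GOR1 had a difference of 0.09 ± 0.07 in MKT1e, which did not pass. It rose by 0.23 ± 0.07 in PMA1e MKT1e (adjusted p = 0.045), a call kept in 11 of the 20 alternatives, with 0.14 (adjusted p = 0.31) without PMA1e MKT1e replicate 2.

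The malate synthase genes MLS1 and DAL7 consume glyoxylate, DAL7 in allantoin use. MLS1 was dim, with a mean intensity of 9.86 in ancestral cells, and rose by 0.32 ± 0.06 in PMA1e MKT1e (adjusted p = 0.003), where the value with a pseudocount of 1 was 0.68 and with 64 was 0.12. DAL7 fell by 1.32 ± 0.07 in MKT1e (adjusted p = 2.9e-06), by 1.24 ± 0.07 in MDS3e MKT1e and by 0.98 ± 0.07 in PMA1e MKT1e, under all 20 alternatives, opposite to AGX1 in the first and the last. In MDS3e it fell by 0.24 ± 0.07 (adjusted p = 0.034), a call lost without Ancestral replicate 1 (-0.18) or either array of MDS3e (-0.23 and -0.25) or PMA1e MKT1e (-0.24 each). A pseudocount of 1 and the fit to the compared genotypes only also lost it. ICL2, also in the glyoxylate list, passed in none of the comparisons with ancestral cells. In all, of the 5 genes of that list 1 fell in MKT1e (20.3% of all genes called) and 2 fell in MDS3e (25.2%). In MDS3e MKT1e 3 fell (38.7%), and in PMA1e MKT1e 2 rose and 1 fell (21.6%).

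**Figure D4:**
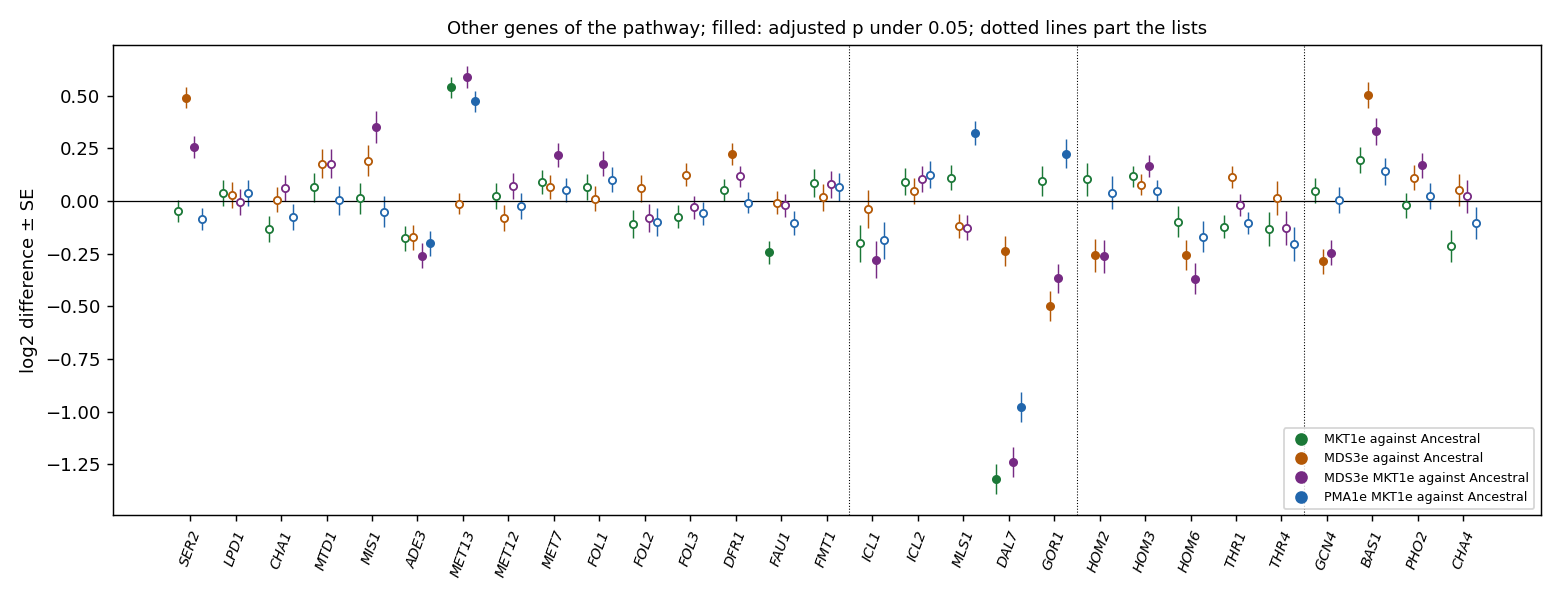
Log2 difference from Ancestral ± SE of 29 other genes of the pathway in the 4 strains with evolved alleles; filled points have an adjusted p under 0.05, and dotted lines part, from left to right, the one-carbon, glyoxylate, threonine and regulator lists. DAL7 reaches -1.32 in MKT1e, MET13 lies near 0.5 in each strain with MKT1e, and SER2 and BAS1 are highest in MDS3e.

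Of 5 threonine synthesis genes, which supply GLY1, none passed in MKT1e (20.3% of all genes called) or PMA1e MKT1e (21.6%), 2 fell in MDS3e (25.2%), and 1 rose and 2 fell in MDS3e MKT1e (38.7%). In a list of 5, these counts lie near those shares. The homoserine dehydrogenase gene HOM6 fell by 0.37 ± 0.07 in MDS3e MKT1e (adjusted p = 0.003), but read -0.12 with quantile normalization (adjusted p = 0.16). In MDS3e HOM6 fell by 0.26 ± 0.07 and HOM2, the aspartic semialdehyde dehydrogenase gene, by 0.26 ± 0.08, with -0.04 and -0.06 after quantile normalization, where neither passed. Without Ancestral replicate 2 those values were -0.17 and -0.15 and did not pass, and neither gene passed without either MDS3e array (HOM6 -0.23 and -0.28, HOM2 -0.21 and -0.30), nor HOM2 without either PMA1e MKT1e array (-0.26 each). Both genes were among the brightest 10%. In MDS3e MKT1e HOM2 fell by 0.26 ± 0.08 and HOM3 rose by 0.17 ± 0.05, calls kept in 14 of the 20 alternatives each.

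Among 4 regulators, BAS1, a Myb-type activator of glycine decarboxylase and purine genes, rose by 0.50 ± 0.06 in MDS3e (adjusted p = 0.00057). Its rise was 0.33 ± 0.06 in MDS3e MKT1e (adjusted p = 0.0024), and both held under all 20 alternatives. GCN4, the activator of amino acid synthesis genes, which is controlled mainly at translation, fell by 0.29 ± 0.06 in MDS3e (adjusted p = 0.0082). Quantile normalization moved this to -0.07 (adjusted p = 0.35), and without Ancestral replicate 2 or MDS3e replicate 1 it was -0.23 and -0.25 and did not pass. In MDS3e MKT1e GCN4 fell by 0.25 ± 0.06 (adjusted p = 0.0093), where quantile normalization turned it to 0.033 (adjusted p = 0.66). Without Ancestral replicate 2 or MDS3e MKT1e replicate 2 it was -0.19 and -0.21 and did not pass. GCN4 also is one of the brightest 10% of genes. CHA4, the activator of CHA1, did not pass against ancestral cells in any strain, and PHO2, a partner of Bas1, rose by 0.17 ± 0.06 in MDS3e MKT1e (adjusted p = 0.048), a call kept in 5 of 20 alternatives. Of the fits without 1 array it was kept only without Ancestral replicate 1, and it was 0.12 without replicate 2.

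Between the strains with evolved alleles, the lists gave further calls. Of the 15 one-carbon genes, 1 rose and 1 fell when MKT1e was added to MDS3e, where 17.2% of all genes were called. When MDS3e was added to MKT1e 4 rose, against 26.4%, and 3 were lower in PMA1e MKT1e than in MDS3e MKT1e, against 31.4%. The 4 were MIS1 at 0.34, SER2 at 0.31, FAU1 at 0.22 and CHA1 at 0.19. SER2 kept this call in all 20 alternatives, MIS1 in 18, FAU1 in 14 and CHA1 in 6. Without MKT1e replicate 1 CHA1 read 0.14. The 3 were MIS1 at -0.40 ± 0.07, SER2 at -0.34 ± 0.05 and MET7, a folylpolyglutamate synthetase gene, at -0.17 ± 0.06. Of the 5 glyoxylate genes, 1 and 2 fell in the first and second of these comparisons, and 3 were higher in the third, GOR1 at 0.59 ± 0.07, MLS1 at 0.45 ± 0.06 (1.00 with a pseudocount of 1 and 0.16 with 64) and DAL7 at 0.26 ± 0.07. The MET7 call was kept in 8 of the 20 alternatives, and DAL7 did not pass without MDS3e MKT1e replicate 1 (0.16) or either PMA1e MKT1e array. Of the threonine genes 2 fell when MDS3e was added to MKT1e, HOM2 at -0.37 and HOM6 at -0.27. Neither passed after quantile normalization or cyclic loess, or without MKT1e replicate 2 or MDS3e MKT1e replicate 2. Over the alternatives the 2 differences shrank to -0.09 and -0.03 at the least. Only HOM2 was called between the double strains, higher in PMA1e MKT1e than in MDS3e MKT1e at 0.30 ± 0.08, but at 0.10 after quantile normalization. That call was lost when MDS3e MKT1e replicate 2 or PMA1e MKT1e replicate 1 was left out. Of the regulators 2 rose and 1 fell in the former comparison, and 1 was higher and 1 lower in the latter. Of these calls, CHA4 in the former was kept in 7 of the 20 alternatives, with 0.15 without MKT1e replicate 2 against 0.23. PHO2 in the former was kept in 9, and BAS1 in the latter in 9. GCN4 read -0.29 in the former and 0.25 in the latter, and lost both calls after quantile normalization and cyclic loess. Over the alternatives its values reached -0.006 and 0.023, and both calls were also lost without single arrays of the compared strains. None of the 29 genes passed limma's test of the interaction, where 0.385% of all genes were called. In that test 4 of the 29 had an unadjusted p under 0.05, against 7.1% of all genes. None passed limma's test of PMA1e MKT1e against MKT1e, where 0.0184% of all genes were called. There 3 of the 29 had an unadjusted p under 0.05, near the 9.86% of all genes.

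The genes whose levels over the 10 arrays were most like those of AGX1, among 2997 other genes that passed the F-test, were HSP26 (Pearson's r = 0.995), YRO2 (0.987), OCH1 (0.986), MCR1 (0.983) and KGD2 (0.982). The arrays fall into 5 genotypes, so these values describe mostly the order of the genotype means. HSP26 encodes a small heat shock protein, YRO2 a membrane protein, OCH1 a Golgi mannosyltransferase, MCR1 a mitochondrial cytochrome b5 reductase and KGD2 a subunit of the 2-oxoglutarate dehydrogenase complex. HSP26 differed from ancestral cells by 1.15 in MKT1e, beside 1.00 for AGX1, and by -1.15 in MDS3e, beside -0.72. Its differences in MDS3e MKT1e and PMA1e MKT1e were -0.16 and 1.44, beside -0.03 and 1.19. For OCH1 the values in the same order of genotypes were 0.28, -0.29, -0.08 and 0.30.

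Nearest to GCV2 were SUT2 (r = 0.985), CCS1 (0.978), ARO2 (0.976), RFC3 (0.967) and RET1 (0.966), of which ARO2 encodes chorismate synthase and CCS1 the copper chaperone of superoxide dismutase. Nearest to SER3 were RQC2 (0.977), YAT2 (0.977), ESC1 (0.976), YPL199C (0.967) and NAP1 (0.964), of which YAT2 encodes a carnitine acetyltransferase. YAT2 differed from ancestral cells by -0.28 in MKT1e and 0.21 in MDS3e, beside -0.55 and 0.27 for SER3.

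**Figure D5:**
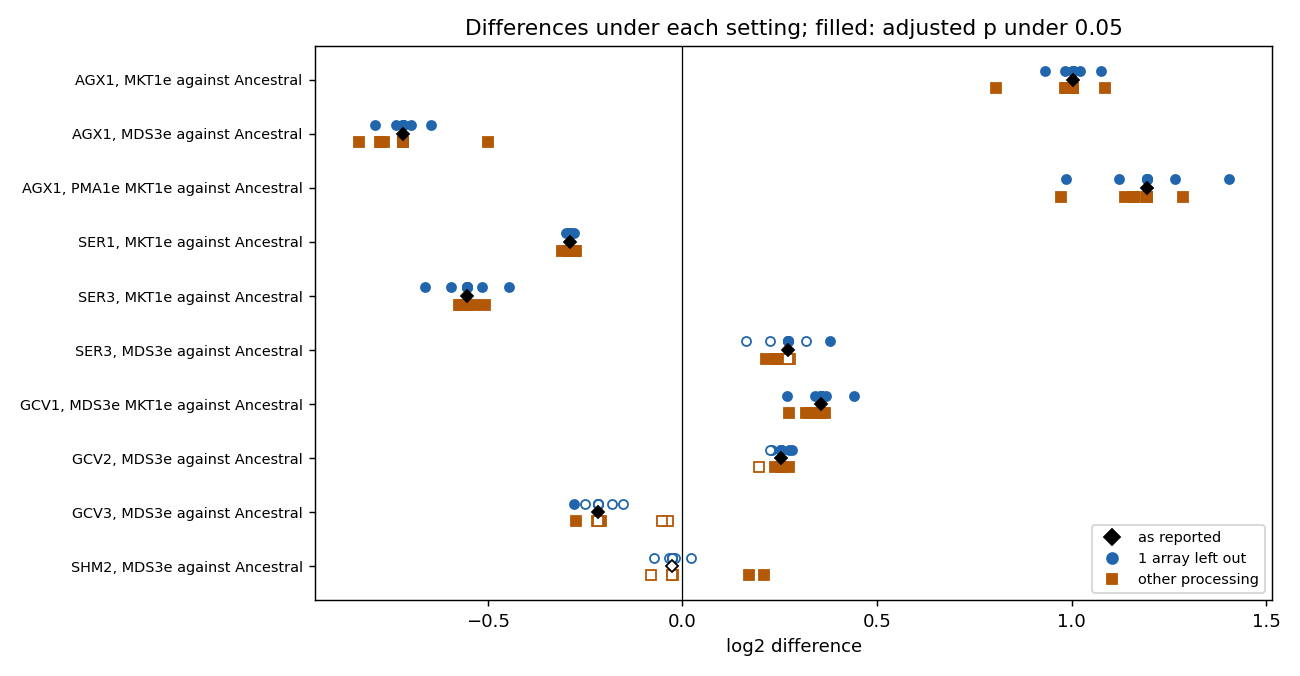
Log2 difference of selected genes (horizontal axis) as reported (black), with 1 array left out (blue) and under other processing (orange); filled symbols have an adjusted p under 0.05. The AGX1 values stay filled throughout, GCV3 in MDS3e moves from -0.22 to -0.04, and SHM2 in MDS3e changes sign.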

How the data were processed

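Total RNA was labelled with the 3′ IVT Express kit and hybridized to 1 Affymetrix array per culture, per the labels' protocols. The authors made the deposited intensity values with Affymetrix Expression Console, per the submitters' processing notes. Of the version, algorithm, scaling and genome build nothing is given in the sources used here. Deposited numbers lay on a linear scale between 0.00517 and 3479, and the medians of the arrays between 9.45 and 11.0.

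Of 10928 probe sets, 5498 named 1 *S. cerevisiae* gene, with symbols from the R64 annotation. For 47 genes with several, the brightest was used, which left 5449. As the background limit served the 95th percentile of 1746 probe sets for another species, 4.15 on the log2 scale. The number of arrays limits the precision.

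In R 4.3.3, limma 3.58.1 fitted log2 of the intensity plus 16 with 1 mean per genotype over all 10 arrays. The test was checked on simulated data. The pooled fit lends each comparison the spread of arrays it does not compare. The p-values measure the spread between the labelled replicate cultures.

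The members, lists, tests and alternatives were chosen with earlier results of these data known. The rule named all 10 members, up to 5 called genes of each list by size, and for AGX1, GCV2 and SER3 the 5 genes with the highest r; uncalled list genes were named to complete the account. The alternatives were median centring, quantile normalization, cyclic loess, pseudocounts of 1 and 64, a background filter, the mean of probe sets, trended and robust variances, the compared genotypes only, a replicate block and leaving out each array. Promoter motifs and sequences were not analysed here.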

Additional observations from a re-analysis of the deposited data

How the results depend on the processing

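Of 90 pairs of gene and comparison for the 10 genes, 29 were called, and 13 of these kept their call under all 20 alternatives, while 16 lost it at least once. The fit to the compared genotypes only, with fewer arrays, lost 8. Of the 61 not called, 11 passed under at least 1 alternative. Of 54 calls among the other pathway genes, 22 held under all 20. The 4 members called in MDS3e against ancestral became 2 with a pseudocount of 1 and 2 with the compared genotypes only, and from 1 to 4 without 1 array. The 4 in MDS3e MKT1e against ancestral became 2 with the compared genotypes only and from 1 to 4 without 1 array, and the 5 in PMA1e MKT1e became 3 and from 2 to 5. Without 1 array, the 4 in MDS3e MKT1e against MKT1e ran from 1 to 4, and the 5 in PMA1e MKT1e against MDS3e MKT1e from 3 to 5. These fits have fewer arrays, and a lone array is assumed to vary like the other genotypes. Over all genes the calls, with their range over the alternatives, were 1104 in MKT1e against ancestral (578 to 1248), 1375 in MDS3e (554 to 1437), 2107 in MDS3e MKT1e (1455 to 2208), 1177 in PMA1e MKT1e (622 to 1369), 937 for MKT1e added to MDS3e (461 to 1088), 1440 for MDS3e added to MKT1e (543 to 1700), 1709 between the double strains (801 to 1943), 1 between PMA1e MKT1e and MKT1e (0 to 11) and 21 for the interaction (13 to 26). SHM2 turned from -0.03 to 0.21 (quantile normalization) and 0.17 (cyclic loess) in MDS3e, and from -0.05 to 0.22 and 0.19 in MDS3e MKT1e, and GCN4 from -0.25 to 0.033 and 0.0031 in MDS3e MKT1e; the cause was not tested. The replicate numbers are shared between genotypes, and same-numbered arrays deviated together with r over 0.1 in 3 of 10 pairs (from -0.20 to 0.39). The labels name no batch, and whether same-numbered arrays shared one was not tested. With a replicate block 1 call of the 10 genes was lost, SHM1 in PMA1e MKT1e against MDS3e MKT1e (-0.17, adjusted p = 0.056), and the members called there were 4.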
